A study of Mus musculus with 9 samples.

Results

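The CC chemokines *Ccl2*, *Ccl3*, *Ccl4*, *Ccl5*, *Ccl6*, *Ccl7*, *Ccl9*, *Ccl12* and *Ccl19* were followed in mouse brain tissue after an intracerebral injection of lipopolysaccharide (LPS), a component of the bacterial cell wall that acts through the receptor TLR4. These 9 of the 17097 genes on the array that could be named were taken because the study names them for its array data, so their selection drew on the same samples, and their counts of changed genes are not independent evidence of a response. Each gene was read from a probe set annotated to it alone, and where a gene had several, from the probe set with the highest mean over the 9 arrays. Male C57Bl/6J mice of 10 to 12 weeks received LPS or phosphate-buffered saline (PBS) into the striatum, were perfused with saline, and gave tissue from the injected hemisphere. There were 3 groups of 3 arrays each, LPS 4 d, LPS 1 d and PBS (taken at 4 d), and each array measured RNA pooled from 3 mice. No group of PBS mice was collected at 1 d, so at 1 d the effect of LPS and the shorter time since the injection cannot be told apart. The values are log2 expression values, and the brain was intact tissue with all its cells, so more cells that make a transcript and more transcript per cell cannot be told apart.

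Chemokines are small secreted proteins that draw leukocytes along a gradient, and the CC family is named for a pair of adjacent cysteines near the start of the mature protein. They act on receptors of the CCR family on monocytes, macrophages, neutrophils, dendritic cells and lymphocytes. In brain tissue microglia, astrocytes, endothelium and incoming myeloid cells are known to make them, and ligation of TLR4 induces many of their genes through NF-kB and interferon regulatory factors. *Ccl2*, *Ccl7* and *Ccl12* encode the monocyte chemoattractants that bind CCR2. *Ccl3*, *Ccl4* and *Ccl5* encode inflammatory chemokines that attract macrophages and lymphocytes, and the products of *Ccl3* and *Ccl5* bind CCR1. *Ccl6* and *Ccl9* encode further myeloid chemoattractants of the mouse. *Ccl19* encodes a ligand of CCR7, the receptor that guides dendritic cells and T cells to lymphoid tissue.

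All 9 chemokines were higher 1 d after LPS than after PBS, 8 of 9 were still higher at 4 d, and the 9 parted by how much of the 1 d level was present at 4 d. *Ccl2*, *Ccl3*, *Ccl4*, *Ccl7* and *Ccl12* were lower at 4 d than at 1 d, whereas *Ccl5*, *Ccl6*, *Ccl9* and *Ccl19* did not pass the test between the times. The study had placed the former in a cluster of genes raised mainly at 1 d. It had placed the latter in a cluster raised at both times, more so at 1 d. These clusters came from the same arrays, so the split is not independent of them. A gene was called changed where limma's p, adjusted over all probe sets, was below 0.05 and the change was at least 1.5-fold. By this rule 3.86% of all 17097 genes were higher and 0.532% lower at 1 d than after PBS, 4.21% were higher and 0.205% lower at 4 d than after PBS, and 1.84% were higher and 1.37% lower at 4 d than at 1 d. The median log2 change of the 9 chemokines was 4.45 at 1 d and 1.71 at 4 d against PBS, and -2.18 at 4 d against 1 d, beside medians of -0.03, -0.02 and 0.00 over all genes. Both comparisons with PBS share the same 3 PBS arrays. With 3 arrays per group, the smallest p of an exact permutation test is 0.1. The p values therefore come from limma, which shares information on the spread among all probe sets, and the spread here is that between RNA pools.

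**Figure D1:**
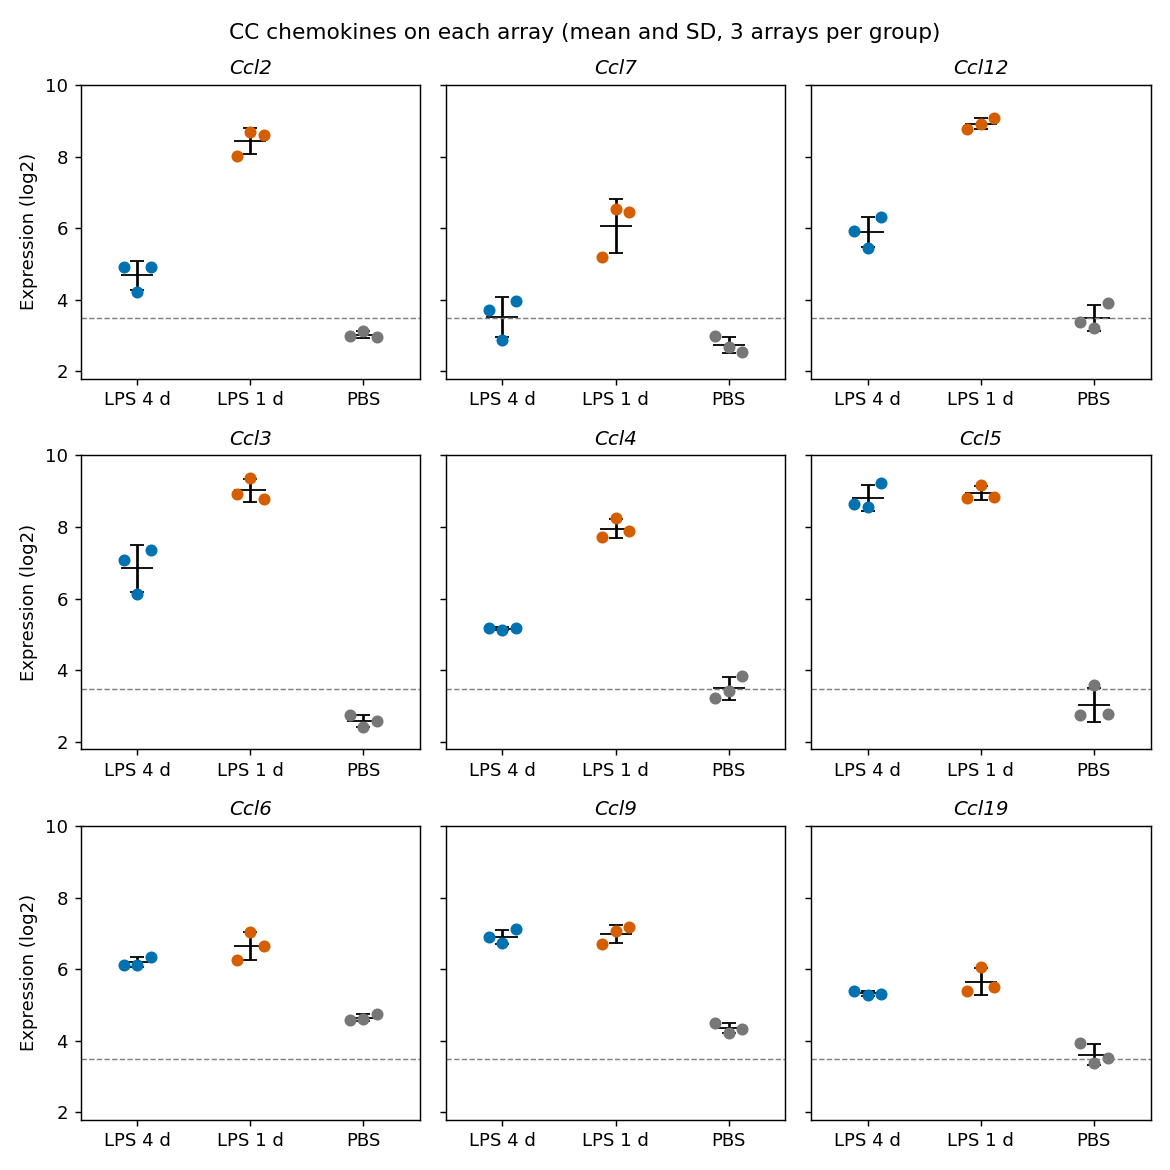
Expression of the 9 CC chemokines (y axis, log2 values) on each array in the groups LPS 4 d, LPS 1 d and PBS (x axis), with points for arrays, horizontal lines for means and bars for the SD of 3 arrays. The dashed line is the background level of 3.49, and for *Ccl5*, *Ccl6*, *Ccl9* and *Ccl19* the 2 LPS groups overlap, while for the other 5 every LPS 4 d array lies below every LPS 1 d array.

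The 9 genes lie at few sites of the genome. In the RefSeq gene table (assembly GRCm38.p6), 8 of the 9 lie on chromosome 11 and *Ccl19* lies on chromosome 4. Along chromosome 11, *Ccl2*, *Ccl7*, *Ccl11*, *Ccl12*, *Ccl8* and *Ccl1* follow each other with 0 other protein-coding genes between them. After 25 other protein-coding genes come *Ccl5*, *Ccl9*, *Ccl6*, *Ccl3* and *Ccl4*, again with 0 other protein-coding genes between them. The 250 bases before the start of the gene were in the RefSeq promoter sequences used here (GRCm38.p6) for 5 of the 9, *Ccl3*, *Ccl6*, *Ccl9*, *Ccl12* and *Ccl19*, and they are shown because the first 4 include neighbours on chromosome 11 that were and that were not called lower at 4 d than at 1 d. They are printed in the direction of the gene, with capitals for matches on either strand to the NF-kB consensus, to the interferon response core GAAANNGAA or to the AP-1 site TGANTCA.
Ccl12, chr11:82101595-82101844, plus strand: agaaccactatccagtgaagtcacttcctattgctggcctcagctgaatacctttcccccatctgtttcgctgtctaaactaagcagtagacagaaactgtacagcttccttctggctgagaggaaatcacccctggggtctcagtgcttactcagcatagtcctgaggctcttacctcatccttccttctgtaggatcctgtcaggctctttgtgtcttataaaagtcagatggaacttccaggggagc
Ccl3, chr11:83649379-83649628, minus strand: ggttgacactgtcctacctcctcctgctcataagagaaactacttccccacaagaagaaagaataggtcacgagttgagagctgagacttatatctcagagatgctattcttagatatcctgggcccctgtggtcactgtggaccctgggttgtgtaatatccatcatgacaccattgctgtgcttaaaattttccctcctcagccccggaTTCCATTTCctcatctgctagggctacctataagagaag
Ccl9, chr11:83578637-83578886, minus strand: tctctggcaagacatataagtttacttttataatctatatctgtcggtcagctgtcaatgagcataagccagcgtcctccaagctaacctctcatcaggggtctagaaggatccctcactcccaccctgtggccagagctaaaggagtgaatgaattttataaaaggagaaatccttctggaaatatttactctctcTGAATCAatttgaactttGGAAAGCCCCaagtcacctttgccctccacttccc
Ccl6, chr11:83593088-83593337, minus strand: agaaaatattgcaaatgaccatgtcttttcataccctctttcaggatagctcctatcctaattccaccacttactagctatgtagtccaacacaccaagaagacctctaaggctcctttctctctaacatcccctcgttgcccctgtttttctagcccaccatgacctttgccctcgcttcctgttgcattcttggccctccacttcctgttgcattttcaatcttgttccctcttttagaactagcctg
Ccl19, chr4:42756366-42756615, minus strand: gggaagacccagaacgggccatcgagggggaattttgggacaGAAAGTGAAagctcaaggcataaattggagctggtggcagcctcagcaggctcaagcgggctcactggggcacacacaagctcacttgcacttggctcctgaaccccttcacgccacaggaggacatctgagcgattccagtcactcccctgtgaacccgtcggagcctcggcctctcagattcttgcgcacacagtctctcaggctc

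The *Ccl9* stretch held an NF-kB consensus match 35 to 26 bases before the start, on the strand opposite to the gene, and an AP-1 match 53 to 47 bases before it. The *Ccl3* stretch held the interferon response core 39 to 31 bases before the start on the opposite strand, and the *Ccl19* stretch held it 208 to 200 bases before the start on the strand of the gene. The stretches of *Ccl6* and *Ccl12* held 0 matches to these letters. Over all 32851 promoter sequences of the same length, 7.25% held the NF-kB consensus, 7.13% the interferon response core and 6.75% the AP-1 site. A match describes these letters only and was not set against the changes in expression.

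Of the 9 genes, the monocyte chemoattractants *Ccl2* and *Ccl12* had the steepest falls between the times. *Ccl2* had log2 values of 4.91, 4.22 and 4.93 at 4 d after LPS, 8.01, 8.69 and 8.59 at 1 d, and 3.00, 3.14 and 2.95 after PBS. Its 3 groups did not overlap, and the PBS arrays lay at the background level of the array. *Ccl2* was 3.15-fold higher than PBS at 4 d (log2 change 1.66, standard error 0.22, adjusted p = 0.00321) and 42.2-fold higher at 1 d (5.40, standard error 0.22, adjusted p = 5.11e-06). Between the times it was 13.4-fold lower at 4 d (log2 change -3.74, adjusted p = 0.000179). In linear intensity *Ccl2* averaged 26.4 ± 6.76 at 4 d, 352 ± 83.4 at 1 d and 8.19 ± 0.557 after PBS (SD, n = 3 arrays in each group).

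*Ccl12*, which lies in the same run of genes on chromosome 11 as *Ccl2*, encodes a further CCR2 ligand of the mouse. *Ccl12* had log2 values of 5.92, 5.45 and 6.30 at 4 d after LPS, 8.77, 8.90 and 9.09 at 1 d, and 3.37, 3.21 and 3.90 after PBS. Again no array of any group overlapped another group. *Ccl12* was 5.28-fold higher than PBS at 4 d (log2 change 2.40, adjusted p = 0.000439) and 43.1-fold higher at 1 d (log2 change 5.43, adjusted p = 5.43e-06), with a standard error of 0.23. It was 8.17-fold lower at 4 d than at 1 d (log2 change -3.03, adjusted p = 0.000363).

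*Ccl7* was the transient member, called above PBS at 1 d and not at 4 d. Its log2 values were 3.72, 2.89 and 3.96 at 4 d after LPS, 5.20, 6.55 and 6.46 at 1 d, and 2.98, 2.69 and 2.55 after PBS. At 4 d replicate 2 lay within the range of the PBS arrays, whereas replicates 1 and 3 lay above it. *Ccl7* was 10.0-fold higher than PBS at 1 d (log2 change 3.33, standard error 0.38, adjusted p = 0.000935). At 4 d the log2 change was 0.78 with a 95% interval of -0.07 to 1.63 (adjusted p = 0.35), an interval that does not show a return to the PBS level. It was 5.83-fold lower at 4 d than at 1 d (log2 change -2.54, adjusted p = 0.00822). *Ccl7* had the widest spread of the 9 at 1 d, an SD of 0.75 log2, and without replicate 1 of the 1 d group its 1 d log2 change was 3.76.

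*Ccl3* and *Ccl4*, which encode chemokines that macrophages release and lie next to each other, also fell between the times. *Ccl3* had log2 values of 7.08, 6.12 and 7.36 at 4 d after LPS, 8.93, 9.38 and 8.77 at 1 d, and 2.76, 2.42 and 2.60 after PBS. It was the chemokine with the largest change of the 9 at 1 d, 86.7-fold (log2 change 6.44, standard error 0.29, adjusted p = 6.96e-06). At 4 d it remained 19.2-fold above PBS (log2 change 4.26, adjusted p = 5.64e-05), so that a 4.52-fold fall between the times (log2 change -2.18, adjusted p = 0.00493) left it far above PBS on all arrays.

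*Ccl4* had log2 values of 5.19, 5.12 and 5.19 at 4 d after LPS, 7.72, 8.25 and 7.89 at 1 d, and 3.22, 3.43 and 3.85 after PBS. The 4 d arrays agreed within an SD of 0.04 and lay apart from both other groups. *Ccl4* was 3.18-fold higher than PBS at 4 d (log2 change 1.67, standard error 0.17, adjusted p = 0.000642) and 21.9-fold higher at 1 d (log2 change 4.45, adjusted p = 3.79e-06). It was 6.90-fold lower at 4 d than at 1 d (log2 change -2.79, adjusted p = 0.000206). With ordinary tests in place of limma's moderated ones, the calls between the times were lost for *Ccl3* (adjusted p = 0.0558) and *Ccl7* (adjusted p = 0.0737) and kept for *Ccl2*, *Ccl4* and *Ccl12*.

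*Ccl5*, which encodes a chemoattractant of monocytes and T cells that binds CCR1, had the largest change of the 9 at 4 d. Its log2 values were 8.65, 8.57 and 9.22 at 4 d after LPS, 8.82, 9.17 and 8.85 at 1 d, and 2.76, 3.59 and 2.77 after PBS. The LPS arrays of the 2 times overlapped, and all lay far above PBS, where replicate 2 was the highest. *Ccl5* was 54.7-fold higher than PBS at 4 d (log2 change 5.77, adjusted p = 6.93e-06) and 60.0-fold higher at 1 d (log2 change 5.91, adjusted p = 5.11e-06), with a standard error of 0.25. Between the times its log2 change was -0.13 with a 95% interval of -0.70 to 0.43 (adjusted p = 0.876). In linear intensity *Ccl5* averaged 460 ± 120 at 4 d, 497 ± 67.5 at 1 d and 8.56 ± 3.03 after PBS (SD, n = 3 arrays in each group).

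*Ccl9* and *Ccl6*, which lie between *Ccl5* and *Ccl3* and encode chemoattractants of myeloid cells in the mouse, rose less than *Ccl5* and were not called between the times. *Ccl9* had log2 values of 6.89, 6.73 and 7.12 at 4 d after LPS, 6.71, 7.08 and 7.17 at 1 d, and 4.49, 4.22 and 4.34 after PBS. It was 5.91-fold higher than PBS at 4 d (log2 change 2.56, standard error 0.15, adjusted p = 1.88e-05) and 6.22-fold higher at 1 d (log2 change 2.64, adjusted p = 1.5e-05). Between the times it changed by -0.08 log2 (95% interval -0.41 to 0.25, adjusted p = 0.88). *Ccl9* was the only member with a further probe set of its own, which gave log2 changes against PBS of 1.90 at 4 d (adjusted p = 9.21e-05) and 2.03 at 1 d (adjusted p = 4.77e-05), and -0.13 between the times (adjusted p = 0.758).

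*Ccl6* had log2 values of 6.12, 6.12 and 6.35 at 4 d after LPS, 6.25, 7.03 and 6.65 at 1 d, and 4.57, 4.62 and 4.76 after PBS. Both LPS groups lay above PBS and overlapped each other. *Ccl6* was 2.92-fold higher than PBS at 4 d (log2 change 1.55, standard error 0.18, adjusted p = 0.00107) and 3.98-fold higher at 1 d (log2 change 1.99, adjusted p = 0.000184). Between the times the log2 change was -0.45, with an unadjusted 95% interval of -0.84 to -0.05 that leaves out 0 and an adjusted p of 0.318. Whether *Ccl6* fell slightly between the times was not resolved by 3 arrays per group.

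*Ccl19* had log2 values of 5.40, 5.29 and 5.30 at 4 d after LPS, 5.38, 6.07 and 5.51 at 1 d, and 3.95, 3.38 and 3.51 after PBS. The LPS arrays of both times overlapped and lay above all PBS arrays. *Ccl19* was 3.28-fold higher than PBS at 4 d (log2 change 1.71, standard error 0.20, adjusted p = 0.00112) and 4.10-fold higher at 1 d (log2 change 2.04, adjusted p = 0.000326), with -0.32 between the times (95% interval -0.77 to 0.12, adjusted p = 0.542). The gene table also lists transcribed pseudogenes of *Ccl19* on chromosome 4, and signal from such copies cannot be told apart from that of *Ccl19* on this probe set.

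**Figure D2:**
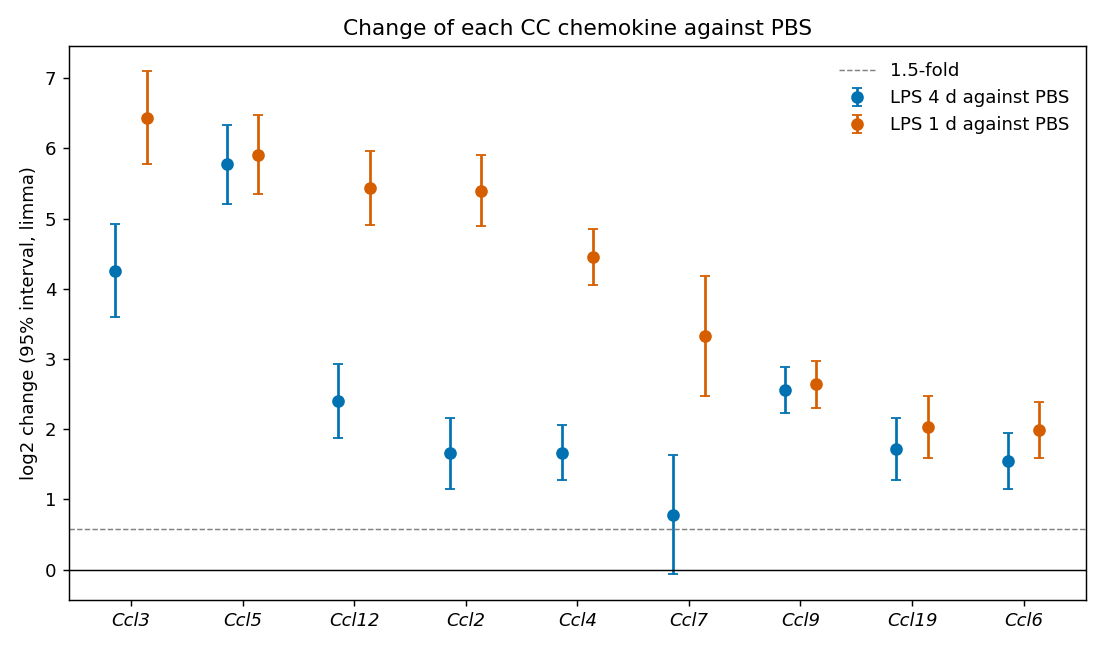
Change of each CC chemokine against PBS in log2 units (y axis) after LPS (4 d and 1 d), ordered by the change at 1 d (x axis), with 95% intervals from limma that are not adjusted for the number of genes. The 2 times lie apart for *Ccl3*, *Ccl12*, *Ccl2*, *Ccl4* and *Ccl7* and close together for *Ccl5*, *Ccl9*, *Ccl19* and *Ccl6*, and the interval of *Ccl7* at 4 d includes 0.

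The share of the 1 d response that was present at 4 d ranged widely over the 9 genes. In log2 units, it was 23.5% for *Ccl7*, 30.7% for *Ccl2*, 37.4% for *Ccl4*, 44.2% for *Ccl12* and 66.2% for *Ccl3*. It was 77.7% for *Ccl6*, 84.1% for *Ccl19*, 97.1% for *Ccl9* and 97.7% for *Ccl5*. On the linear scale the spread was wider, since the 4 d increment over PBS was 5.30% of the 1 d increment for *Ccl2*, 8.06% for *Ccl7*, 10.2% for *Ccl4*, 10.4% for *Ccl12* and 22.2% for *Ccl3*. The same linear share was 62.7% for *Ccl6*, 71.2% for *Ccl19*, 92.5% for *Ccl5* and 93.6% for *Ccl9*. The smallest called fall, of *Ccl3*, had a 95% interval of -2.84 to -1.51 log2, and the largest fall that was not called, of *Ccl6*, one of -0.84 to -0.05 log2. These intervals did not overlap, but the genes were split by the same estimates, so the gap is not further evidence of a split. The difference in fall between any 2 genes was not tested.

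The size of the 1 d rise set 8 of the 9 genes apart in the same way, with *Ccl5* as the exception. The 5 genes that fell had 1 d rises of 3.33 to 6.44 log2. *Ccl5* and *Ccl3* had the 2 largest log2 rises at 1 d, 5.91 and 6.44, and log2 changes of -0.13 and -2.18 between the times. *Ccl6*, *Ccl9* and *Ccl19* had the 3 smallest rises at 1 d, from 1.99 to 2.64 log2. After PBS, *Ccl2*, *Ccl3*, *Ccl7* and *Ccl12* among the genes that fell had means at or below 3.49 log2, the highest level of the nonspecific control probes. So did *Ccl5* among those not called between the times. *Ccl4* stood just above this level at 3.50, and *Ccl19* was near it at 3.62, with PBS replicate 2 at 3.38. A fold change from such a level is limited by the background of the array, and so are the shares of the log2 change given for these genes. Every one of the 9 had a mean above this level in both LPS groups, although *Ccl7* at 4 d stood only just above it, at 3.52.

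Neighbouring genes did not all share a time course. In the second group on chromosome 11, *Ccl5*, *Ccl9* and *Ccl6* follow each other and had log2 changes of -0.13, -0.08 and -0.45 between the times, while the adjoining *Ccl3* and *Ccl4* had -2.18 and -2.79. In the first group, *Ccl2*, *Ccl7* and *Ccl12* all fell, but *Ccl8*, which encodes a further monocyte chemoattractant and adjoins *Ccl12*, was higher at 4 d. *Ccl8* had log2 values of 4.53, 4.65 and 4.88 at 4 d after LPS, 3.43, 3.31 and 4.10 at 1 d, and 3.56, 3.91 and 3.79 after PBS. Its log2 change was 0.93 at 4 d against PBS (adjusted p = 0.0378) and 1.07 at 4 d against 1 d (adjusted p = 0.0273), with -0.14 at 1 d against PBS (adjusted p = 0.795). The 4 d arrays of *Ccl8* lay above those of both other groups.

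**Figure D3:**
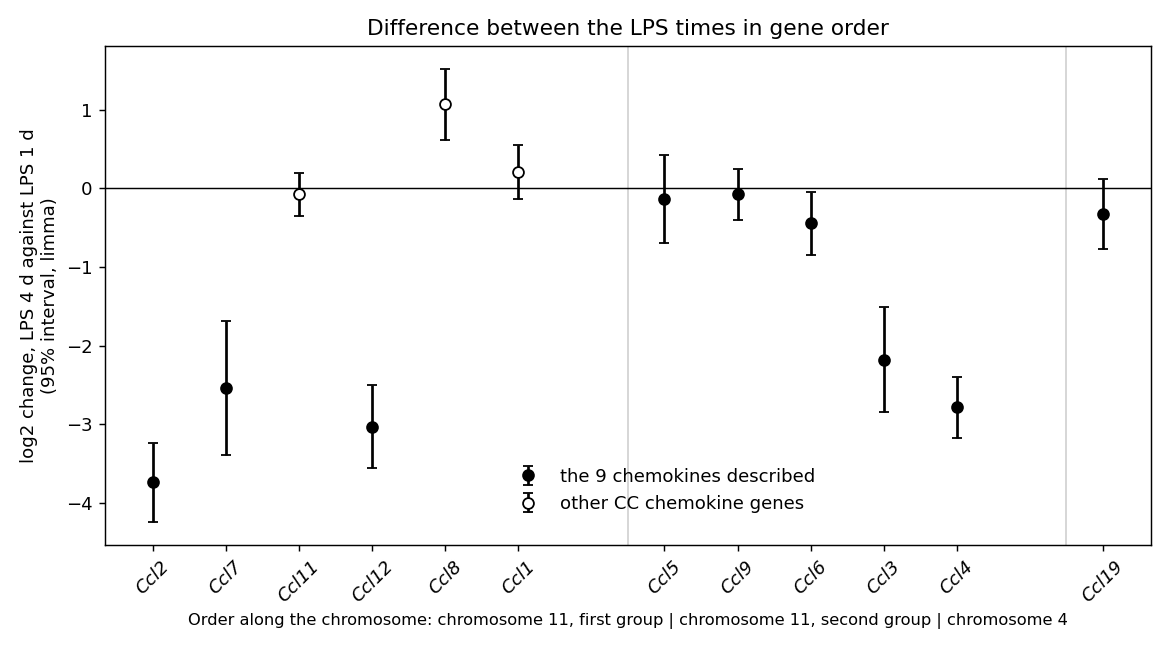
Log2 change between LPS 4 d and LPS 1 d (y axis, with 95% intervals from limma that are not adjusted for the number of genes) of the CC chemokine genes in their order along chromosome 11, in 2 groups, and of *Ccl19* on chromosome 4 (x axis, order and not distance). Filled points are the 9 chemokines described and open points the other CC chemokine genes, and *Ccl5*, *Ccl9* and *Ccl6* lie near 0 beside *Ccl3* and *Ccl4* at -2.18 and -2.79.

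Few of the other CC chemokine genes were called. Of 14 listed, 11 were analysed, and 0 were called in limma at 1 d (3 at an unadjusted p under 0.05), where the median log2 change was 0.17, while *Ccl8* was the only gene called at 4 d and between the times. Over all genes 3.86% were higher at 1 d and 4.21% at 4 d than after PBS, so these counts among 11 genes do not set the group apart. *Ccl1*, *Ccl11*, *Ccl22* and *Ccl24* were at background in every group. *Ccl20*, a chemoattractant of CCR6-bearing lymphocytes named here after its values were seen, had a log2 change of 0.74 at 1 d that did not pass the test (adjusted p = 0.19).

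Of the receptors for CC chemokines, 12 of 15 were analysed, 2 were higher at 1 d, 0 were called in limma at 4 d against PBS (2 at an unadjusted p under 0.05) and 2 were lower at 4 d than at 1 d. *Ccr1*, which encodes a receptor of *Ccl3* and *Ccl5* products on neutrophils and monocytes, had log2 values of 2.72, 2.90 and 3.11 at 4 d after LPS, 5.01, 6.08 and 5.83 at 1 d, and 2.94, 2.57 and 2.81 after PBS. It was above PBS at 1 d (log2 change 2.87, standard error 0.25, adjusted p = 0.000164), and at 4 d it was back within the background of the array, with a log2 change of 0.14 against PBS (adjusted p = 0.827) and of -2.73 against 1 d (adjusted p = 0.000749). *Ccrl2*, which encodes an atypical chemokine receptor, was higher by 2.13 log2 at 1 d (adjusted p = 0.000494) and had 0.79 at 4 d (adjusted p = 0.0965) and -1.34 between the times (adjusted p = 0.0134). *Ccr2*, the receptor of the *Ccl2*, *Ccl7* and *Ccl12* products and named after its values were seen, averaged 3.58 at 4 d, 3.33 at 1 d and 3.16 after PBS, close to background, and was not called (adjusted p = 0.18 at 4 d and 0.633 at 1 d against PBS). The receptors not analysed here included *Ccr7* and *Ackr1*, and 8 receptor genes were at background in every group.

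The CXC, CX3C and XC chemokines also held genes of both kinds. Of 17 listed, 16 were analysed, 8 were higher at 1 d and 5 at 4 d than after PBS, and between the times 4 were lower and 1 higher at 4 d. *Cxcl10*, an interferon-induced attractant of lymphocytes, was higher by 2.75 log2 at 4 d (adjusted p = 0.000283) and by 6.83 at 1 d (adjusted p = 3.79e-06), and changed by -4.09 between the times (adjusted p = 0.000179). The neutrophil attractants *Cxcl1* and *Cxcl2* changed by -4.02 (adjusted p = 0.000493) and -4.38 log2 (adjusted p = 0.0012) between the times. *Cxcl13*, a B cell attractant, was higher at 4 d by 3.68 log2 than after PBS (adjusted p = 8.9e-05) and by 1.39 than at 1 d (adjusted p = 0.0343). *Cxcl16*, which encodes a transmembrane chemokine, had log2 changes of 3.13 at 4 d (adjusted p = 5.08e-05) and 2.18 at 1 d (adjusted p = 0.000348) against PBS, and *Cxcl9*, a further interferon-induced chemokine, one of 2.43 at 1 d (adjusted p = 0.00274).

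**Figure D4:**
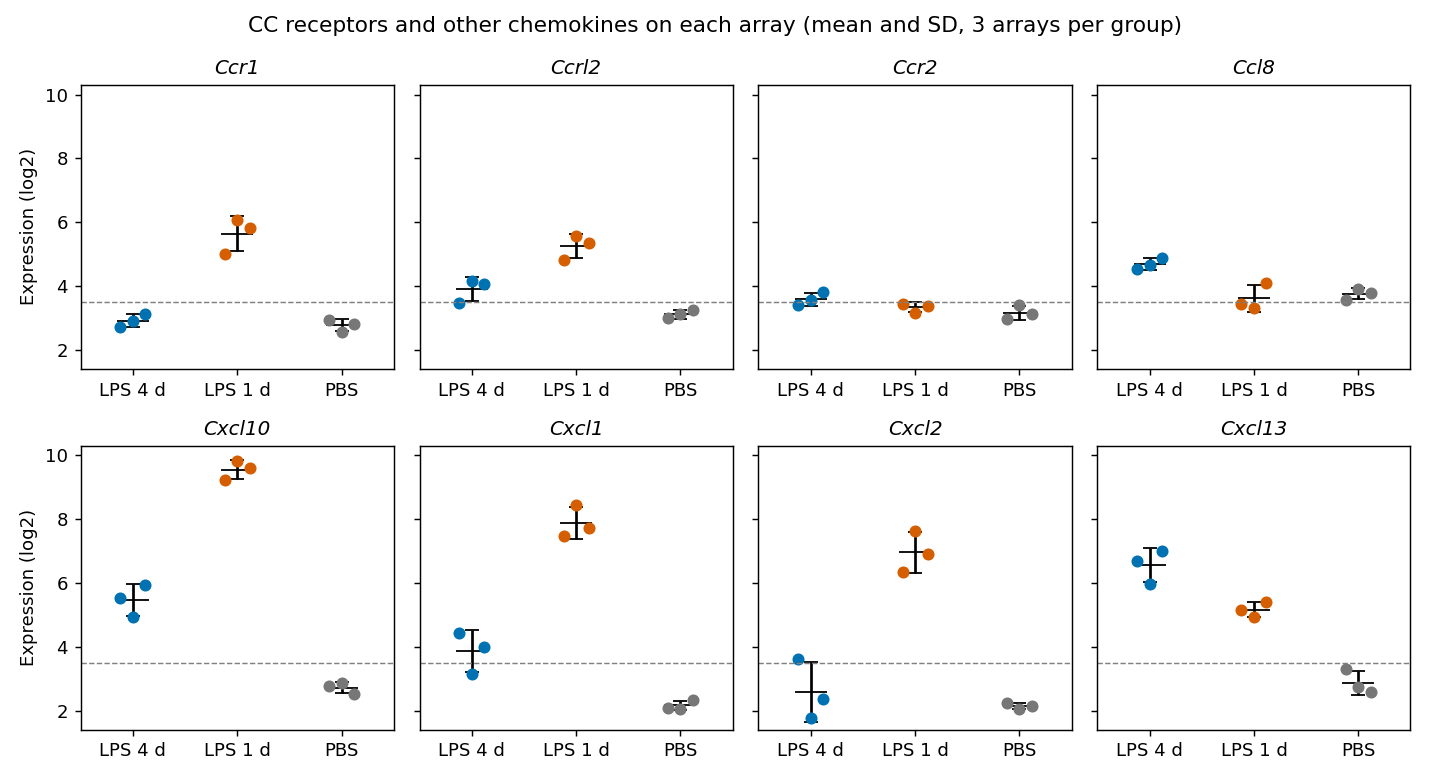
Expression (y axis, log2 values) of 3 CC receptor genes, of *Ccl8* and of 4 CXC chemokines on each array in the groups LPS 4 d, LPS 1 d and PBS (x axis), with points for arrays, lines for means, bars for the SD of 3 arrays and a dashed line at the background of 3.49. *Ccr1* is above background only at 1 d, *Ccl8* and *Cxcl13* are highest at 4 d, and *Cxcl10*, *Cxcl1* and *Cxcl2* are highest at 1 d.

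Of 25 listed regulators of chemokine genes, which hold inhibitors of NF-kB signalling such as *Nfkbia* beside transcription factors, 23 were analysed. Of these, 15 were higher at 1 d and 13 at 4 d than after PBS, while between the times 10 were lower and 1 was higher at 4 d. *Cebpd*, a regulator of the acute phase response, was higher by 2.44 log2 at 4 d (adjusted p = 0.000158) and by 3.61 at 1 d (adjusted p = 1.5e-05). *Irf7*, a regulator of interferon genes, was higher by 3.14 log2 at 1 d (adjusted p = 0.000298) and had a log2 change of 1.16 at 4 d (adjusted p = 0.0745), with -1.98 between the times (adjusted p = 0.00881). *Nfkbiz*, which encodes a nuclear regulator of NF-kB target genes, and *Nfkbia*, which encodes an inhibitor of NF-kB, were higher at 1 d by 2.70 (adjusted p = 0.000104) and 2.11 log2 (adjusted p = 0.000169). Between the times *Nfkbia* changed by -1.13 log2 (adjusted p = 0.0131) and *Nfkbiz* by -0.29 (adjusted p = 0.632). *Irf8*, a regulator of myeloid cells, was the gene that was higher at 4 d than at 1 d, by 1.12 log2 (adjusted p = 0.00993).

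The genes with the most similar profile were sought over all 17097 genes, with likeness taken as the root mean square difference in log2 values over the 9 arrays after the PBS mean of each gene was set to 0. *Ccl2* lay nearest to *Cxcl1* (0.30 log2) and *Il1b* (0.39), *Ccl12* nearest to *Ccl2* (0.50) and *Cxcl1* (0.55), and *Ccl7* nearest to *Irf7* (0.31) and *Isg20* (0.39). *Ccl4* lay nearest to the interferon-induced *Gbp2* (0.15) and *Oasl2* (0.27), and *Ccl3* nearest to *Timp1* (0.63) and *Acod1* (0.70). Among the genes not called between the times, *Ccl5* lay nearest to *Cybb* (0.67) and *Ch25h* (0.93), and *Ccl9* to *Lgals3bp* (0.18) and *Gfap* (0.19). *Ccl6* lay nearest to *Csf3r* (0.19) and *Serping1* (0.20), and *Ccl19* to *Csf3r* (0.19) and *Ccl6* (0.22). Among the 9, *Ccl6* and *Ccl19* were the closest pair, at 0.22 log2, although they lie on different chromosomes, and *Ccl5* and *Ccl6* the farthest, at 3.34.

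Arrays of the same group differed in the same direction for most of the 9 genes after LPS. At 4 d replicate 2 was the lowest array for 8 of 9 and replicate 3 the highest for 7, and at 1 d replicate 1 was the lowest for 8 of 9 and replicate 2 the highest for 7. After PBS no array was the lowest for more than 4 or the highest for more than 4. The median deviations from the group mean over the 9 genes were -0.24 log2 for replicate 2 and 0.24 for replicate 3 at 4 d, and -0.27 for replicate 1 and 0.29 for replicate 2 at 1 d. They were of the size of the changes of *Ccl5*, *Ccl6*, *Ccl9* and *Ccl19* between the times, from -0.45 to -0.08. Leaving out any of these arrays changed no call among the 9 genes. The median log2 value over all probe sets lay between 4.32 and 4.37 on every array.

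Marker genes of several cell types moved with the same groups. The 11 neutrophil markers analysed had a summed linear level of 303 to 505 at 4 d after LPS, 1642 to 4463 at 1 d and 109 to 190 after PBS, with 6 of 11 higher at 1 d and 4 of 11 lower at 4 d than at 1 d, led by *S100a8* and *S100a9*, while *Camp*, *Mpo* and *Elane* were at background throughout. At 1 d this sum was 1642 on replicate 1, which was the lowest array for most of the chemokines, and 4463 on replicate 2, which was the highest for most. At 4 d the order differed, since the sum was highest on replicate 1, at 505. It was 303 on replicate 2, the lowest array for 8 of 9 chemokines, and 313 on replicate 3, the highest for 7. The 6 monocyte markers summed to 1047 to 1182 at 4 d, 1464 to 1490 at 1 d and 559 to 625 after PBS, and 5 of 6 were higher at 1 d and 4 of 6 at 4 d than after PBS. *Ly6c1* and *Fn1* had the highest mean levels of the 6, and such genes weigh most in a linear sum. By flow cytometry the study found negligible numbers of monocyte-derived cells after PBS, so this sum is not a count of monocytes. Between the times the monocyte markers split, since *Ly6c1*, *Plac8* and *Chil3* were lower at 4 d. *F13a1*, *Fn1* and *Vcan* had log2 changes of 0.91, 0.56 and 0.10 that were not called. *Plac8*, *Chil3*, *F13a1* and *Vcan* are named after their values were seen. The 9 macrophage markers, among them *Adgre1* and *Csf1r*, had sums of 1841 to 2413 at 4 d, 672 to 740 at 1 d and 320 to 335 after PBS, with 5 of 9 higher and 1 of 9 lower at 1 d than after PBS and 6 of 9 called higher at 4 d than at 1 d, while *Cd163* and *Lyve1* were at background. The 8 microglial markers, among them *Cx3cr1* and *Fcrls*, summed to 1633 to 1862 at 4 d, 478 to 725 at 1 d and 774 to 807 after PBS. Against PBS 3 of 8 were called lower at 1 d and 4 of 8 higher at 4 d, and at 4 d 7 of 8 exceeded their 1 d level by the test. The study counted no significant increase of microglia by flow cytometry. At 4 d the macrophage and microglial sums were lowest on replicate 2, at 1841 and 1633, as were most of the chemokines. At 1 d these sums were also lowest on replicate 2, at 672 and 478, where most of the chemokines were highest. The part of any of these cell types in the chemokine changes was not tested.

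Markers of further cell types were read in the same way. Of 11 T and NK cell markers, 10 were at background in every group, all of the CD3 chains *Cd3d*, *Cd3e* and *Cd3g* included, *Nkg7* and *Gzma* were called higher at 4 d than after PBS at such levels, and the sums of 76.8 to 88.0 at 4 d, 77.3 to 79.9 at 1 d and 77.2 to 81.3 after PBS overlapped. Of 3 B cell markers *Cd79b* alone was above background, at 4 d, and of 5 dendritic cell markers *Xcr1* and *Itgax* were at background, *Itgax* being called higher at 4 d than in both other groups at such levels. Astrocyte markers summed to 3043 to 3565 at 4 d, 2572 to 2651 at 1 d and 1935 to 2118 after PBS, with 2 of 5 higher than PBS at each time, and endothelial markers to 567 to 629 at 4 d, 396 to 435 at 1 d and 344 to 359 after PBS. The tissue label was checked on the 7 markers of neurons and striatum, such as *Syt1* and *Snap25*, which had summed levels of 10035 to 10796 at 4 d, 10447 to 10943 at 1 d and 10547 to 11192 after PBS and 0 calls in limma in the 3 comparisons (*Drd2* alone at an unadjusted p under 0.05, at 1 d and between the times), and the 4 oligodendrocyte markers, *Mbp* and *Mag* among them, had 1 call at 1 d and 1 between the times.

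**Figure D5:**
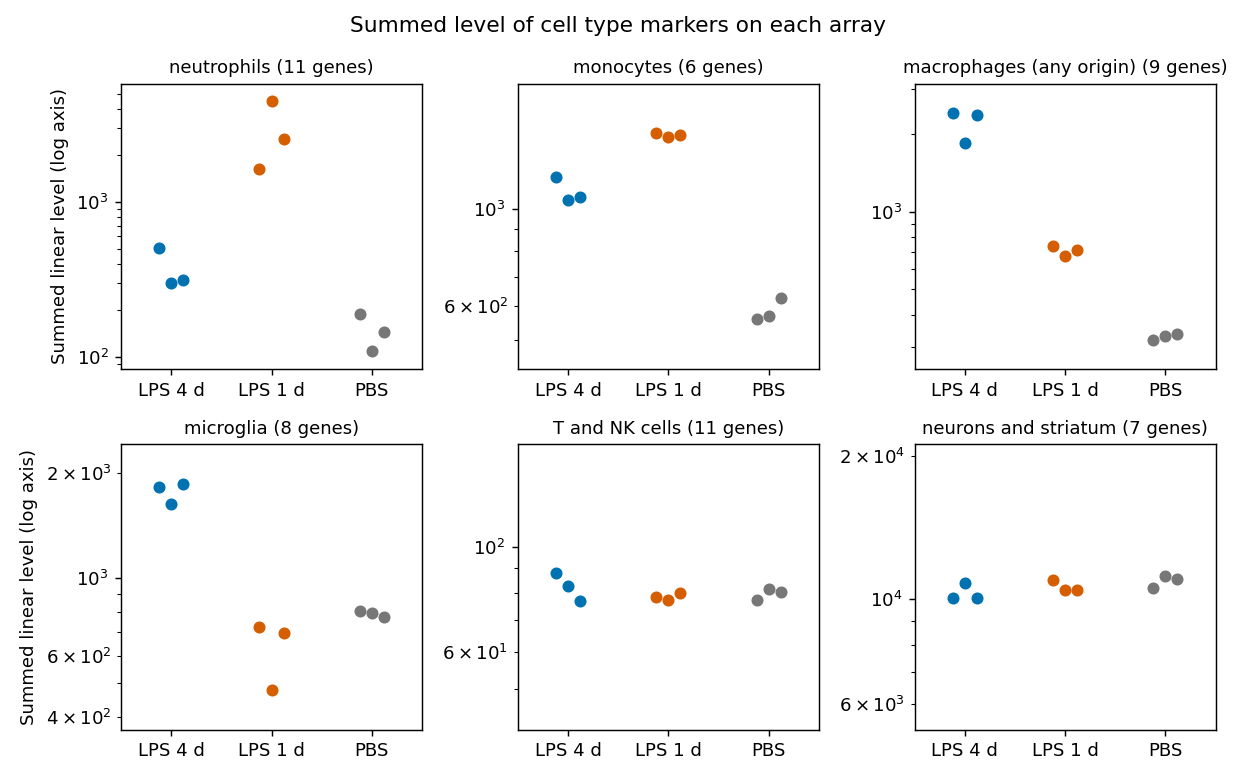
Summed linear level of the analysed markers of 6 cell types (y axis, log axis, a scale of its own in each panel) on each array in the groups LPS 4 d, LPS 1 d and PBS (x axis), each point an array. The sums for neutrophil and monocyte markers are highest at 1 d, those for macrophage and microglial markers are highest at 4 d, and the groups overlap for T and NK cells and for neurons. A sum is not a count of cells.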

How the data were processed

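RNA from pooled brain tissue was hybridised by the authors to Affymetrix HT MG-430 PM arrays, and the log2 value deposited for each probe set was made by RMA in Affymetrix Expression Console (version: not given in the sources used here). Background correction and normalization are those of the authors. All 45037 probe sets other than 104 control entries were fitted in limma 3.58.1 (R 4.3.3) with a mean for each group over 9 arrays and empirical Bayes moderation (6 residual and 3.02 prior degrees of freedom), and p values were adjusted by Benjamini-Hochberg over all probe sets. Thresholds were an adjusted p of 0.05 and a 1.5-fold change. Gene names came from the platform annotation, with 28898 probe sets of 1 symbol, 551 of several and 15588 of none, which gave 17097 genes. The background level was set by the brightest of 23 nonspecific control probe sets, by its mean. Linear levels are 2 raised to the log2 value. The number of arrays limits the precision, and no slide or scan batch could be tested.

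The named genes are the 9 chemokines, up to 4 called genes of each pathway list and comparison with the largest change, the 2 genes nearest in profile to each chemokine and the 2 marker genes of highest level per cell type, beside markers at background and genes marked as chosen later. The chemokines and all lists were chosen with earlier results of these data known. The test was checked on simulated data. Python 3.11.15, numpy 2.4.6, pandas 2.3.3 and matplotlib 3.10.9 were used, with 18 alternatives for each result. A receptor gene of the lists is not reported here.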

Additional observations from a re-analysis of the deposited data

Results flagged for a closer look

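For 5 of the 9 chemokines the LPS arrays differed between 4 d and 1 d by the direct test of the times (limma, adjusted over all probe sets). The log2 change at 4 d against 1 d was -3.74 for *Ccl2*, -3.03 for *Ccl12*, -2.79 for *Ccl4*, -2.54 for *Ccl7* and -2.18 for *Ccl3*. In each case all 3 arrays at 4 d lay below all 3 at 1 d, which rests on the same values as the test and is not further evidence. PBS was collected at 4 d alone, so the course of the LPS response and the time since the injection cannot be told apart in this difference.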

How the results depend on the processing

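Of the 486 log2 changes computed for the 9 chemokines under 18 other settings, 482 kept their direction and their side of the thresholds. With ordinary tests without moderation, *Ccl3* (adjusted p = 0.0558) and *Ccl7* (adjusted p = 0.0737) lost the call between the times. The count of chemokines called lower at 4 d was then 3 and the count classed as transient was 0. The fitted changes were the same, while the estimate of the spread and its degrees of freedom differed (6 without moderation, 9.02 with it). The change of *Ccl9* between the times, which was never called, ranged from -0.214 to 0.0147 log2 with each array left out in turn, above 0 where LPS 1 d replicate 3 (0.0147) or LPS 4 d replicate 2 (0.0141) was the array left out. With each array left out, the chemokines called were 9 at 1 d and 8 at 4 d against PBS, and 5 between the times, on every occasion. Same-numbered arrays did not deviate together (correlations of -0.03 to 0.02 over 9 pairs), so the numbers are not taken as pairs. A fit with the replicate number as a block gave *Ccl3* an adjusted p of 0.021 between the times and *Ccl7* the same log2 change of -2.54, with 9, 8 and 5 chemokines called as before. Levels near the array background of 3.49 limit the fold changes against PBS of *Ccl2*, *Ccl3*, *Ccl4*, *Ccl5*, *Ccl7*, *Ccl12* and *Ccl19*.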
